A study of Homo sapiens with 8 samples.

Results

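Claudins and the genes that work beside them at epithelial junctions were followed in NCCIT cells after depletion of each TET gene. A set of 10 named genes made up the group, chosen as CLDN16 together with CLDN1, CLDN3, CLDN4, CLDN6, CLDN7, CLDN10, EPCAM, OCLN and TJP1, and the question put to them was whether the rise of CLDN16 was shared by other junction genes. Of these 10 genes, 9 had a transcript cluster (the array's probe group for a gene) annotated to a single symbol and were measured, out of 18417 genes measured in all. The only cluster for OCLN is annotated to OCLN and OCLNP1, so no value is given for OCLN. The group was chosen by the log2 intensities of CLDN16, whose rise against the control on these 8 arrays was known when the group was put together. The values of CLDN16 against the control are therefore a description, with no test. The other members were also chosen with earlier results of these data known, so their adjusted p-values against the control are no independent evidence.

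NCCIT is a human embryonic carcinoma cell line, and the TET proteins are enzymes that oxidise 5-methylcytosine in DNA to 5-hydroxymethylcytosine. Cells were transfected with pooled siRNAs against TET1 (siTET1), TET2 (siTET2) or TET3 (siTET3), or with a non-targeting control siRNA (siNTC), with no other treatment. Total RNA of each group, 250 ng an array, was read on 2 Affymetrix Human Gene 1.0 ST arrays, giving 8 arrays in 4 groups. The labels do not say that the 2 arrays of a group came from separate cultures, so the tests rest on the spread of these arrays alone, which may be technical. An siRNA lowers a transcript without removing it: TET1 averaged a log2 intensity of 9.89 in siTET1 and 10.57 in siNTC (change -0.68), TET2 averaged 6.93 in siTET2 and 7.81 in siNTC (-0.88), and TET3 averaged 6.45 in siTET3 and 7.52 in siNTC (-1.08). The groups also differed from siNTC in other TET transcripts: TET1 was lower in siTET2 (-0.30, adjusted p = 0.000287) and higher in siTET3 (0.42, adjusted p = 1.69e-05), and TET2 was lower in siTET3 (-0.47, adjusted p = 0.00177).

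Tight junctions seal the space between neighbouring epithelial cells near their apical side. Claudins are the membrane proteins that form the junction strands and set which ions pass, occludin is a second kind of strand protein, and TJP1 (ZO-1) ties the strands to actin from inside the cell. EPCAM is an adhesion protein of epithelial and pluripotent cells that binds claudin-7, and CLDN16 is known for its part in magnesium and calcium reabsorption in the kidney's thick ascending limb.

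CLDN16 was below background in siNTC and at least 13.4-fold higher after each depletion, while the largest mean change among the other measured junction genes was 1.78-fold. CLDN1 rose by 0.58 log2 units and CLDN6 by 0.20 in the mean of the 3 depletions, while EPCAM, CLDN7, TJP1, CLDN3 and CLDN10 fell by between 0.22 and 0.84 log2 units. CLDN4 was at background throughout. The mean calls of CLDN6, CLDN3 and CLDN10 were lost when 1 siNTC array was left out. All comparisons against siNTC share the same 2 siNTC arrays. For every member, a shift of the siNTC group therefore cannot be told apart from a shared effect of the depletions.

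CLDN16 lies at chr3:190290361-190412138 on the plus strand (GRCh38.p14), and CLDN1 at chr3:190305707-190322446 on the minus strand, inside the interval of CLDN16. They are the only members whose intervals overlap, and both rose, so the 300 bases around their annotated start sites (250 before and 50 after, from RefSeq, GRCh38.p14) are shown, with each CpG dinucleotide, the substrate of DNA methylation, in capitals. The CLDN16 windows cover chr3:190290111-190290410 and chr3:190387913-190388212, and the CLDN1 window covers chr3:190322397-190322696; each is written 5′ to 3′ along the gene.
CLDN16, first start site: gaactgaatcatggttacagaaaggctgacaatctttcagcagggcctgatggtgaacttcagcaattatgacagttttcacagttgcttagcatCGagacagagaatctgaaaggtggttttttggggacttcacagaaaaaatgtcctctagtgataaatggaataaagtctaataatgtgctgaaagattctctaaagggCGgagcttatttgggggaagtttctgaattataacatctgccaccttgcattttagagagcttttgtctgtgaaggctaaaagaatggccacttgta
CLDN16, second start site: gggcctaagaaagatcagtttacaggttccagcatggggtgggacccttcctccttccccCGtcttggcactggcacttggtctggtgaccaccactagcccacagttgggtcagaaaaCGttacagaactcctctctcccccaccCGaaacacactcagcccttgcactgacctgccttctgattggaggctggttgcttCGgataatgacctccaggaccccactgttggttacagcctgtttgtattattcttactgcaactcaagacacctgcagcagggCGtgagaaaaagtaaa
CLDN1: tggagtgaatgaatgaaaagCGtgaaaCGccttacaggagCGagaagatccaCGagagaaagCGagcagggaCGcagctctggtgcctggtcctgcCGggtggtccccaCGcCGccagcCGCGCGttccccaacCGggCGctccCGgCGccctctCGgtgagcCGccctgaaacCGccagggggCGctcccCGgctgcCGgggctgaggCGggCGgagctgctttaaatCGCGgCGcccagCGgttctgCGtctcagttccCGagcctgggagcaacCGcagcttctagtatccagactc
The CLDN16 windows hold 2 and 5 CpG, and the CLDN1 window holds 31. Over all 35116 promoter windows of this length the median was 14 CpG (the motif searched was CG, which reads the same on both strands), with 96.0% holding at least 1, a 25th percentile of 4 and a 10th percentile of 1. The first CLDN16 window lies between these, and the second CLDN16 window stands at percentile 29.6 and the CLDN1 window at percentile 79.3. The array does not tell which CLDN16 start site was used. A transcript from the second start site would begin past the end of CLDN1, so the overlap holds only for the first. Of the other members with a window, CLDN3 holds 24 CpG, CLDN4 5 and CLDN6 21, CLDN7 holds 10 and 30, CLDN10 12 and 36 and OCLN 26 and 28, and the windows of TJP1, with 4 annotated start sites, hold between 3 and 36.

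CLDN16 had log2 intensities of 9.10 and 8.95 in siTET1, 8.99 and 9.01 in siTET2, and 8.96 and 8.95 in siTET3, against 4.80 and 4.94 in siNTC. All 6 depletion arrays lay above both siNTC arrays with no overlap, and both siNTC arrays were below the background level of 5.21. That level is the 95th percentile of the mean intensity of 341 olfactory receptor genes, taken as genes silent in these cells, and 69.2% of all genes lay above it. The fold is therefore a bound, computed against the background level: CLDN16 was at least 14.1-fold higher in siTET1, at least 13.9-fold higher in siTET2 and at least 13.4-fold higher in siTET3, each against siNTC.

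The level that CLDN16 reached differed little between the 3 depletions. siTET2 minus siTET1 was -0.024 (95% interval -0.18 to 0.13, adjusted p = 0.94), siTET3 minus siTET1 was -0.07 (-0.23 to 0.087, adjusted p = 0.581) and siTET3 minus siTET2 was -0.047 (-0.20 to 0.11, adjusted p = 0.761). These p-values, like all adjusted p-values given here, come from limma with Benjamini-Hochberg adjustment over all 18417 genes. None of the differences passed the threshold of 0.05, and the intervals reach at most 0.23 log2 units from 0. In bulk RNA, a change in the number of cells that express a gene and a change in RNA per cell cannot be told apart.

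CLDN1 encodes a sealing claudin of skin and many other epithelia. Its log2 intensities were 7.43 and 7.35 in siTET1, 7.22 and 7.21 in siTET2, and 7.33 and 7.19 in siTET3, against 6.76 and 6.66 in siNTC. Every depletion array lay above every siNTC array, and the gene was above background on all 8. The change was 0.68 in siTET1 (adjusted p = 3.32e-05), 0.50 in siTET2 (adjusted p = 0.000351) and 0.55 in siTET3 (adjusted p = 0.000173), and 0.58 ± 0.0682 (SE) in the mean of the depletions. Whether any signal of the CLDN1 probes came from RNA of CLDN16 on the opposite strand was not tested.

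CLDN6, at chr16:3014712-3018183, is a claudin of early embryonic and germ cell tumour cells. It gave log2 intensities of 10.85 and 10.83 in siTET1, 10.87 and 11.02 in siTET2, and 10.92 and 11.09 in siTET3, against 10.78 and 10.69 in siNTC. The depletion arrays were all above the siNTC arrays, with a gap smaller than the spread within siTET3. It rose by 0.21 in siTET2 (adjusted p = 0.0151) and 0.27 in siTET3 (adjusted p = 0.00305), and the siTET1 change of 0.11 did not pass (adjusted p = 0.202). The mean change was 0.20 ± 0.0493 (SE, adjusted p = 0.00576), and it was no longer called without siNTC replicate 2 (0.15, adjusted p = 0.0964). The siTET2 call was lost without the same array (0.17, adjusted p = 0.116) or siTET2 replicate 2 (0.13, 0.199), and with no intensity trend (0.0813).

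EPCAM, at chr2:47369311-47387020, fell in all 3 depletions. Its log2 intensities were 9.14 and 8.99 in siTET1, 9.01 and 9.04 in siTET2, and 8.89 and 8.93 in siTET3, against 9.81 and 9.86 in siNTC. The 6 depletion arrays formed a band well below the siNTC pair. The change was -0.77 in siTET1 (adjusted p = 4.25e-07), -0.81 in siTET2 (adjusted p = 2.07e-07) and -0.92 in siTET3 (adjusted p = 8.37e-08), and the mean of -0.84 ± 0.0463 (SE) was 1.78-fold. A second EPCAM cluster on the array gave changes of -0.80, -0.80 and -0.81 in siTET1, siTET2 and siTET3, so that both clusters were lower by a like amount.

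CLDN7, the claudin that binds EPCAM, lies at chr17:7259903-7263213 on the minus strand. It had log2 intensities of 5.84 and 5.89 in siTET1, 5.96 and 5.97 in siTET2, and 6.04 and 6.04 in siTET3, against 6.65 and 6.86 in siNTC. No depletion array reached the siNTC level, and all 8 arrays stayed above background. It fell by 0.89 log2 units in siTET1 (adjusted p = 1.25e-05), 0.79 in siTET2 (adjusted p = 3.03e-05) and 0.72 in siTET3 (adjusted p = 7.09e-05), a mean change of -0.80 ± 0.0797 (SE), or 1.74-fold.

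TJP1, the adaptor of the junction plaque, lies at chr15:29699367-29969049 on the minus strand. It gave log2 intensities of 10.47 and 10.52 in siTET1, 10.60 and 10.57 in siTET2, and 10.42 and 10.43 in siTET3, against 10.95 and 11.04 in siNTC. The groups did not overlap, and the siTET2 arrays were the highest of the depletion arrays. The change was -0.50 in siTET1 (adjusted p = 1.11e-06), -0.41 in siTET2 (adjusted p = 5.2e-06) and -0.57 in siTET3 (adjusted p = 3.32e-07), with a mean of -0.49 ± 0.0337 (SE).

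CLDN3, a sealing claudin at chr7:73768997-73770270, was less firmly measured. It had log2 intensities of 5.93 and 6.06 in siTET1, 6.29 and 6.17 in siTET2, and 6.05 and 6.27 in siTET3, against 6.76 and 6.34 in siNTC. The groups did not overlap, but the siNTC arrays differed from each other more than the lower of them differed from siTET2. CLDN3 fell in siTET1 (-0.56, adjusted p = 0.00547) and siTET3 (-0.39, adjusted p = 0.037), while the siTET2 change of -0.32 did not pass (adjusted p = 0.0784). The mean change was -0.42 ± 0.109 (SE, adjusted p = 0.00692), and without siNTC replicate 1 it was -0.21 (adjusted p = 0.208), so the call rested on that array. The siTET1 call was also lost without that array (-0.34, adjusted p = 0.0772) or siTET1 replicate 1 (-0.49, 0.0539), and the siTET3 call without it (-0.18, 0.362), siTET3 replicate 1 (-0.28, 0.205) or either siTET2 array (0.0564 and 0.0562), in the fit of its own 4 arrays (0.0751) and with no intensity trend (0.0659).

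CLDN10, at chr13:95433755-95579759, encodes a channel-forming claudin of kidney and secretory epithelia. Its log2 intensities were 6.98 and 6.99 in siTET1, 6.90 and 6.93 in siTET2, and 7.12 and 7.16 in siTET3, against 7.34 and 7.12 in siNTC. The siTET3 arrays overlapped the siNTC arrays, and siTET1 and siTET2 lay below them. It fell by 0.25 log2 units in siTET1 (adjusted p = 0.044) and 0.32 in siTET2 (adjusted p = 0.0126), and the siTET3 change of -0.086 did not pass (adjusted p = 0.49). The mean change of -0.22 ± 0.0719 (SE, adjusted p = 0.0277) was not called without siNTC replicate 1 (-0.10, adjusted p = 0.403), nor without siTET1 replicate 1 (0.0525), siTET2 replicate 1 (0.0603) or siTET2 replicate 2 (0.0521). The single calls were likewise lost without siNTC replicate 1, at -0.14 in siTET1 (adjusted p = 0.342) and -0.20 in siTET2 (adjusted p = 0.136), without either siTET2 array and, in siTET1, without either siTET1 array and in the fit of its own 4 arrays (0.0656).

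CLDN4, next to CLDN3 on chromosome 7 (chr7:73830996-73832690), is another sealing claudin. It had log2 intensities of 4.53 and 4.68 in siTET1, 4.37 and 4.36 in siTET2, and 4.51 and 4.58 in siTET3, against 4.48 and 4.48 in siNTC. All 8 values lay below background and the groups overlapped, so no fold is given.

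**Figure D1:**
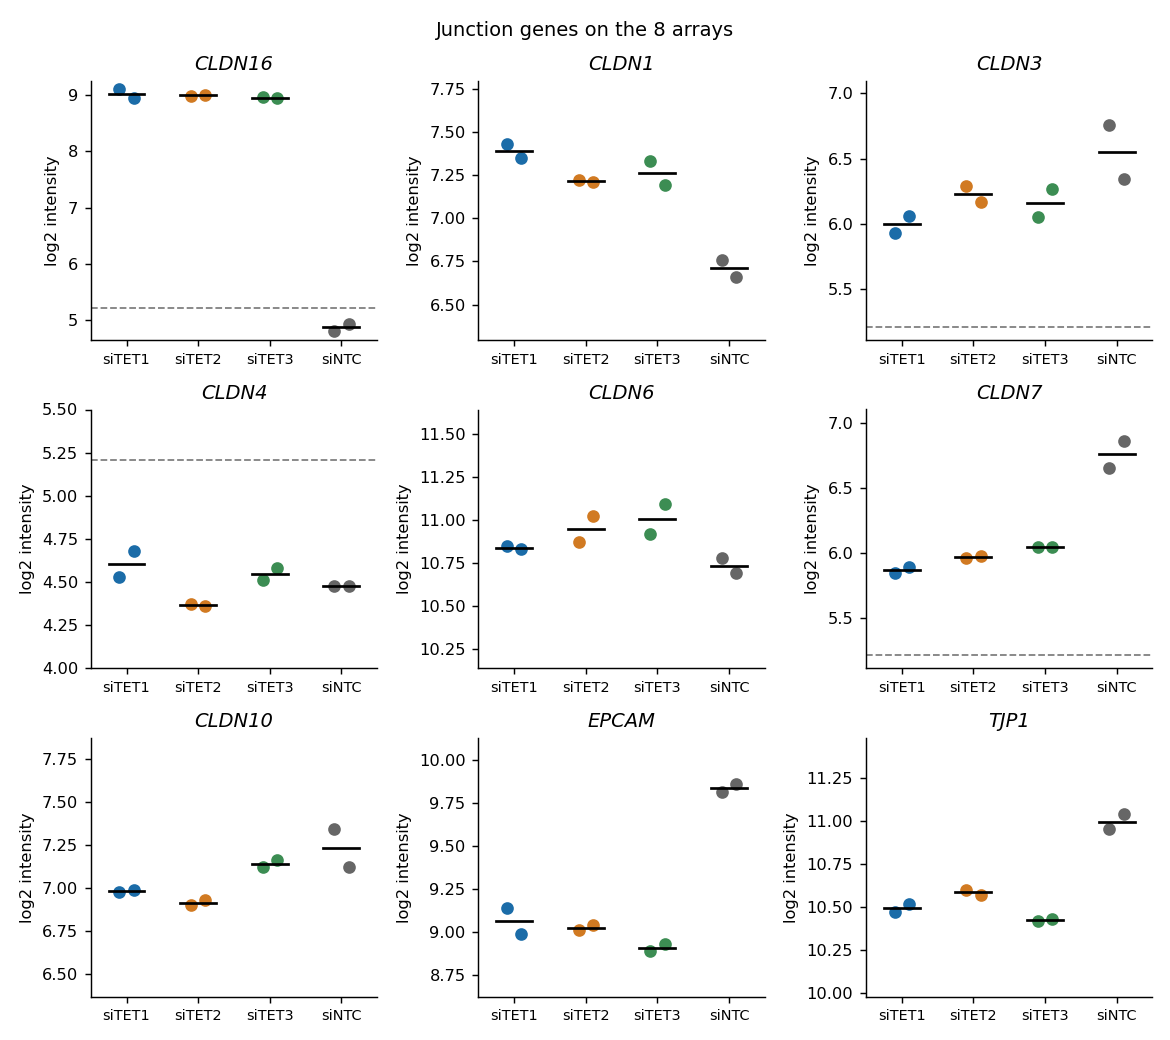
Log2 intensity (y axis, a separate range for each gene) of the 9 measured junction genes on the arrays of siTET1, siTET2, siTET3 and siNTC; points are arrays, bars are group means of 2 arrays, and the dashed line is the background level of 5.21 where it falls in range. CLDN16 lies near 9 after each depletion and below background in siNTC, while CLDN7, EPCAM and TJP1 lie below their siNTC arrays.

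Counted over the 8 members other than CLDN16, 1 rose and 5 fell in siTET1, where 34.3% of all genes were called (15.6% higher and 18.7% lower). In siTET2, 2 rose and 4 fell (36.2% of all genes called, 14.4% higher and 21.8% lower), and in siTET3, 2 rose and 4 fell (36.1%, 13.8% higher and 22.3% lower). In the mean of the 3 depletions, 2 rose and 5 fell, where 40.7% of all genes were called (16.5% higher and 24.2% lower). The comparisons share both siNTC arrays, and since the members were chosen with such values known, nothing is read from these counts.

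**Figure D2:**
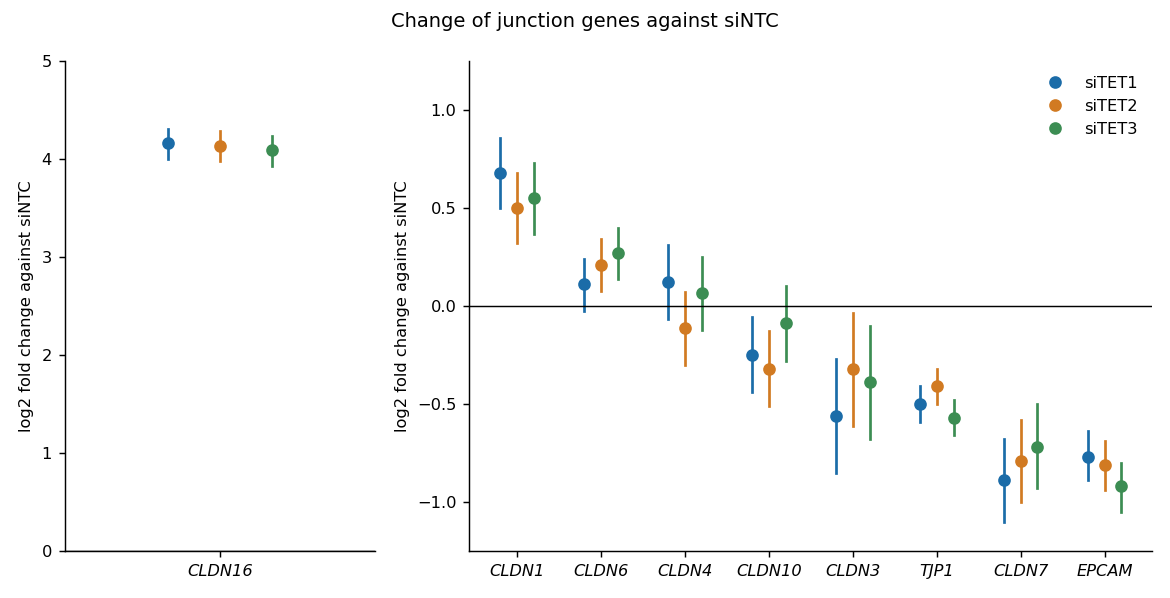
Log2 fold change against siNTC (y axis) of CLDN16 (left) and of the 8 other measured members (right) in siTET1, siTET2 and siTET3, with 95% intervals from limma as vertical lines; the panels have different y ranges. CLDN16 is plotted from its measured intensities, which lie below background in siNTC, so its place near 4 is no exact change; CLDN1 lies between 0.50 and 0.68, and EPCAM between -0.92 and -0.77.

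The 3 depletions were also compared with each other. None of the 9 members was called in siTET2 minus siTET1, where 6.46% of all genes were called (2.33% higher and 4.13% lower), or in siTET3 minus siTET1, where 13.8% were (3.82% higher and 9.94% lower). In siTET3 minus siTET2, with 12.2% of all genes called (4.94% higher and 7.24% lower), TJP1 alone passed, with a difference of -0.16 log2 units (lower in siTET3, 95% interval -0.25 to -0.07, adjusted p = 0.0232). That call was lost without siTET2 replicate 1 (adjusted p = 0.176), siTET2 replicate 2 (0.112) or siTET3 replicate 1 (0.0838), and with no intensity trend in the variance (0.142). Nothing particular to the members is read from these counts.

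Of the nearest 10 measured genes to CLDN16, 3 were called higher (P3H2, FLJ42393 and CLDN1) and 2 lower, where 16.5% of all genes were called higher and 24.2% lower. With 5 genes taken on each side, P3H2, a collagen prolyl hydroxylase, averaged 8.74 in siTET1, 9.31 in siTET2 and 8.72 in siTET3, against 6.50 in siNTC, a mean change of 2.42 (5.36-fold, adjusted p = 3.94e-11). FLJ42393 averaged 6.59, 7.07 and 6.78 in siTET1, siTET2 and siTET3, against 6.03 in siNTC, a mean change of 0.78 (adjusted p = 3.02e-06). P3H2 differed between depletions, by 0.57 in siTET2 minus siTET1 (adjusted p = 0.00103) and by -0.58 in siTET3 minus siTET2 (adjusted p = 0.000361). MIR28, TPRG1, TMEM207, IL1RAP, OSTN and UTS2B were below background on all arrays, TPRG1 being called lower there (-0.28, adjusted p = 0.00716). LPP was lower by a mean change of -0.11 (adjusted p = 0.0138), and the median of the 10 neighbours was -0.037. These neighbours are given as a description, with no test of the neighbourhood.

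The neighbours of the members that fell differed from place to place. Around EPCAM the 10 nearest measured genes had a median change of -0.067 and ranged between -0.22 and 0.19 (2 higher, 3 lower), against -0.84 for EPCAM. Around CLDN7 the median was -0.043, with a lowest value of -0.48 (1 higher, 3 lower), against -0.80 for CLDN7. Around TJP1 the median was -0.18, with 5 of 10 neighbours lower, none higher, and a lowest value of -0.53, against -0.49 for TJP1. Around CLDN3 the median was 0.014 (2 higher, 3 lower), with LIMK1 at -0.80 against -0.42 for CLDN3. Around CLDN10 the median was 0.017 (3 higher, 2 lower), with UGGT2 at 0.70 and DZIP1 at 0.53 against -0.22 for CLDN10. Over all genes 16.5% were called higher and 24.2% lower, and with 10 neighbours a member these counts are a description.

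**Figure D3:**
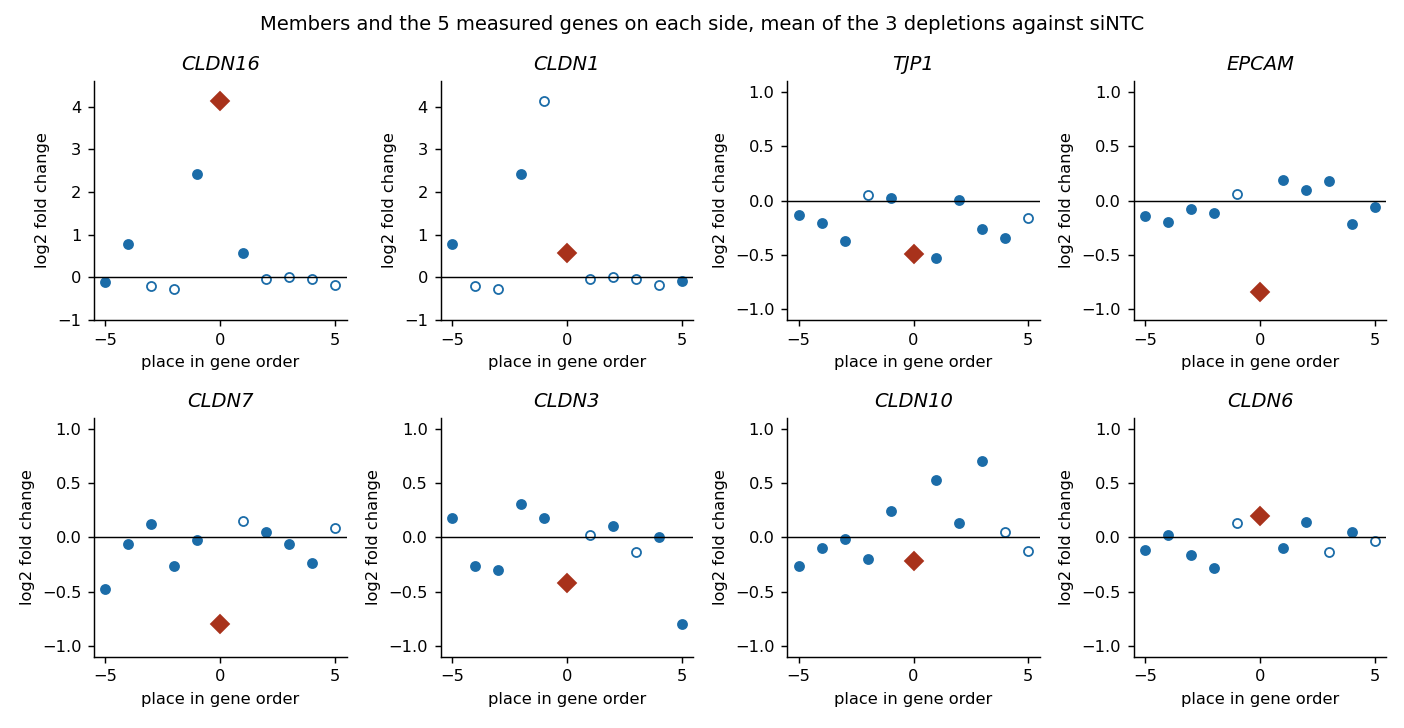
Mean log2 fold change of the 3 depletions against siNTC (y axis) for 8 members (red diamonds) and the nearest 5 measured genes on each side (blue circles, filled where above background on all 8 arrays), by place in gene order; the CLDN16 and CLDN1 panels have a wider y range and show overlapping sets of genes. CLDN16, plotted at 4.13 from siNTC intensities below background, and P3H2 at 2.42 stand above the rest of their region, and EPCAM at -0.84 lies below all its neighbours.

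The other genes of cell junctions were counted in lists made by function, in the mean of the 3 depletions, where the background was 40.7% called and the median change of all genes was -0.026. Of 163 listed genes 144 were measured, and 5 rose and 43 fell. Called genes made up 33.3% of them, with 3.47% higher and 29.9% lower, beside 16.5% higher and 24.2% lower over all genes, and the median was -0.06. Each of the 9 lists had more lower than higher calls in the mean, yet several medians were near 0. In the single depletions 8 lists had more lower calls in siTET1, 8 in siTET2 and 6 in siTET3. These counts include genes below background on all arrays.

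Among the other claudins 16 of 17 were measured, only 6 of them above background in any group, and 1 rose and 2 fell (median 0.00018). CLDN11, a claudin of myelin and Sertoli cells, averaged 6.75 in siTET1, 6.78 in siTET2 and 7.08 in siTET3, against 6.61 in siNTC, and rose by 0.26 in the mean (adjusted p = 0.0171). Of the single depletions siTET3 passed (0.47, adjusted p = 0.00174), and siTET3 minus siTET1 was 0.33 (adjusted p = 0.0388), while siTET3 minus siTET2 was 0.30 (adjusted p = 0.0616). The 2 that fell, CLDN8 and CLDN24, were below background on all arrays. CLDN19, the partner of claudin-16 in the kidney, gave 6.68 and 6.27 in siTET1, 6.21 and 6.44 in siTET2, and 6.56 and 6.44 in siTET3, against 6.23 and 6.37 in siNTC, with overlapping groups; it was named for its known role.

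Of the other tight junction membrane proteins 14 of 16 were measured, none rose and 5 fell (median -0.15). CLMP, an adhesion molecule of the CTX family, averaged 7.64 in siTET1, 7.60 in siTET2 and 7.72 in siTET3, against 8.33 in siNTC (mean change -0.67). CXADR, the coxsackievirus and adenovirus receptor, averaged 10.61, 10.55 and 10.54 in siTET1, siTET2 and siTET3, against 11.01 in siNTC (-0.44). MARVELD2 (tricellulin), the relative of occludin at 3-cell contacts, was named after its values were seen: it averaged 8.27, 8.23 and 8.10 in siTET1, siTET2 and siTET3, against 8.59 in siNTC, a mean change of -0.39 (adjusted p = 4.81e-05).

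Of the adaptors and polarity proteins 21 of 24 were measured, 1 rose and 10 fell (median -0.15), a called share of 52.4%. AMOT, an angiomotin that binds polarity proteins at the junction, fell by 0.46 and RAB13, a GTPase of junction assembly, by 0.41 in the mean of the depletions. RAB13 differed between depletions: it averaged 9.23 in siTET1, 9.20 in siTET2 and 9.66 in siTET3, against 9.77 in siNTC, and siTET3 minus siTET2 was 0.45 (adjusted p = 9e-05). Against siNTC it was not called in siTET3 (-0.12, adjusted p = 0.086). PRKCI, the atypical protein kinase C of the polarity complex, was higher by 0.11 in the mean (adjusted p = 0.046), called in siTET3 (0.20, adjusted p = 0.00582) but not in siTET1 (0.10, adjusted p = 0.13) or siTET2 (0.022, adjusted p = 0.785).

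Adherens junctions and desmosomes join cells through cadherins. Of 13 measured adherens junction genes (14 listed) 1 rose, 2 fell and 10 were not called (median 0.004). CTNNB1 (beta-catenin) averaged 12.88, 12.74 and 12.80 in siTET1, siTET2 and siTET3, against 12.41 in siNTC, a rise of 0.40 in the mean. CDH2 (N-cadherin) fell by 0.42 and PLEKHA7 by 0.40, though PLEKHA7 was not called in siTET3 (-0.27, adjusted p = 0.0757). CDH1 (E-cadherin), named for its known role, averaged 7.84 over the depletions and 7.84 in siNTC. All 15 desmosome genes were measured, but only 7 of them were above background in any group. None rose, 5 fell, all of them among these 7, and 10 were not called (median -0.088). PKP4 (-0.66) and DSP, which encodes desmoplakin (-0.55), were the most reduced.

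Connexins, the proteins of gap junctions, were measured for 15 of 20 genes, of which 1 rose and 2 fell (median -0.058). GJB7 was below background on 1 of 2 siNTC arrays and at least 1.56-fold higher over the 6 depletion arrays. GJA5 (-0.64) and GJA1 (-0.12) fell. GJA1 was called in siTET2 (-0.24, adjusted p = 0.000307) but not in siTET1 (-0.10, adjusted p = 0.0755) or siTET3 (-0.016, adjusted p = 0.786).

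The largest falls in the 9 lists came among the other epithelial genes, of which 18 of 20 were measured, 1 rose and 7 fell (median -0.13), 44.4% of them called. RAB25, a GTPase of epithelial membrane recycling, averaged 7.92 in siTET1, 7.74 in siTET2 and 7.68 in siTET3, against 9.43 and 9.44 on the siNTC arrays. All depletion arrays were over 1 log2 unit below siNTC, and the mean change was -1.66 (3.16-fold, adjusted p = 5.93e-09). SPINT1, an inhibitor of membrane serine proteases, gave 7.66 and 7.62 in siTET1, 7.59 and 7.54 in siTET2, and 7.76 and 7.70 in siTET3, against 8.80 and 8.76 in siNTC (-1.13, 2.19-fold, adjusted p = 4.51e-09). MAL2, a protein of apical transport, and GRHL3, a grainyhead transcription factor, were named after their values were seen, with mean changes of -1.03 (adjusted p = 9.37e-09) and -0.61 (adjusted p = 0.000202). GRHL1, the gene that rose, was below background in siNTC and at least 1.19-fold higher over the depletion arrays. Of the single depletions it was called in siTET2 (adjusted p = 0.000723) but not in siTET1 (adjusted p = 0.153) or siTET3 (adjusted p = 0.118).

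All 18 mesenchymal genes and repressors of epithelial adhesion were measured, 14 of them above background in any group. None was called higher and 7 fell (median -0.025), among them LUM, which was below background on all arrays. FN1 (fibronectin) averaged 9.88 in siTET1, 10.03 in siTET2 and 9.77 in siTET3, against 10.49 in siNTC (mean change -0.60), and SPARC averaged 9.83, 9.87 and 10.02 in siTET1, siTET2 and siTET3, against 10.49 in siNTC (-0.59).

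Kidney tubule genes of magnesium and salt transport, the setting in which CLDN16 is best known, were mostly below background. Of 19 listed genes 14 were measured and 4 of these were above background in any group. None rose in the mean of the depletions and 3 fell (median -0.0047). They were PTH1R (-0.23, adjusted p = 0.045), TRPM7, a magnesium channel (-0.16, adjusted p = 0.00543), and BSND, which was below background on all arrays. Of the single depletions, PTH1R was called only in siTET3 (-0.43, adjusted p = 0.00613) and TRPM7 only in siTET1 (-0.23, adjusted p = 0.00284).

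**Figure D4:**
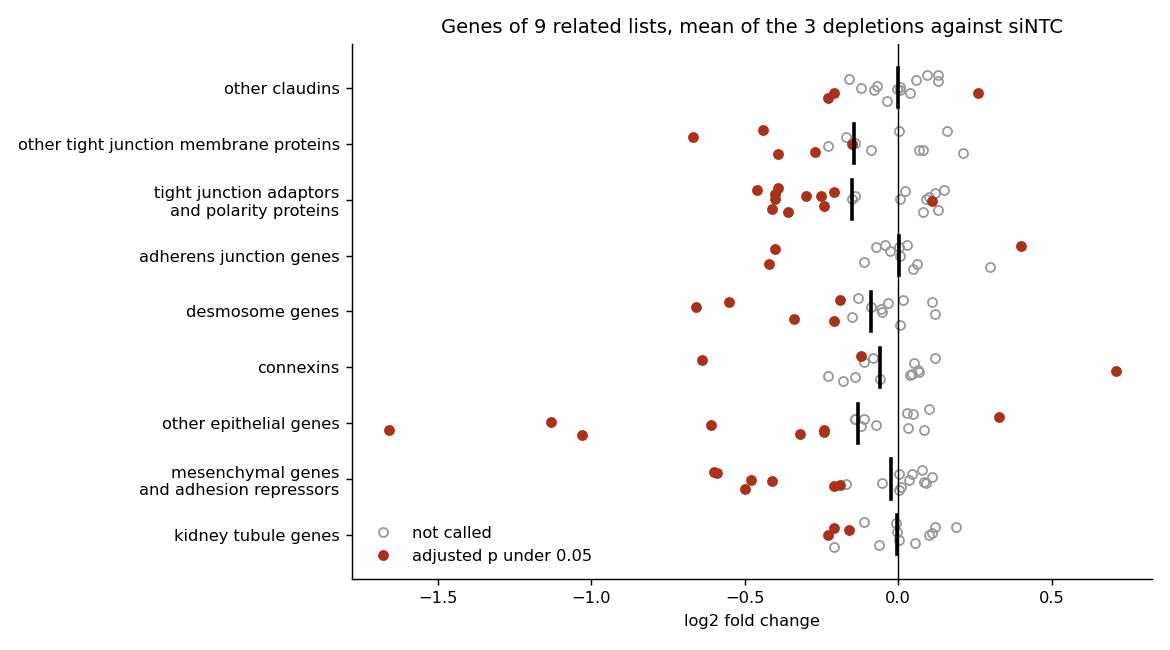
Mean log2 fold change of the 3 depletions against siNTC (x axis) for the measured genes of 9 lists (rows); each circle is a gene, filled red where the limma adjusted p was under 0.05, the vertical black bar is the list's median, and the vertical spread within a row has no meaning. RAB25 at -1.66 and SPINT1 at -1.13 are the leftmost points, and medians lie between -0.15 and 0.004.

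The genes whose profile was most like that of CLDN16 were not junction genes. Likeness was the root mean square difference of log2 values over the 8 arrays, with each gene set to 0 at its siNTC mean. The nearest were SLC5A9 (1.1), NRN1 (1.38), TCL1B (1.47), P3H2 (1.49) and VTRNA1-1 (1.64), with mean changes of 2.86, 2.68, 2.44, 2.42 and 2.29. CLDN1, the nearest other member, had a difference of 3.07 and ranked at 363. The measure favours large rises and uses the CLDN16 values by which the group was chosen. The other members changed far less, which alone keeps them distant from CLDN16, so the ranking is only a description.

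All 10 measured pluripotency markers (of 12 listed) were above background in every group, while POU5F1 and NANOG were not measured. Their mean log2 level was 11.59 to 11.67 on depletion arrays and 11.66 to 11.69 on siNTC arrays. In the mean of the depletions 3 of these markers were called higher (L1TD1 most, 0.44) and 4 lower (PODXL most, -0.66). Over all genes 16.5% were called higher and 24.2% lower. Trophectoderm markers (8 of 9 measured) averaged 6.47 to 6.56 on depletion arrays and 6.68 to 6.74 on siNTC arrays, with CGA, KRT7 and ELF5 below background on all arrays. Neuroectoderm markers (7 measured) averaged 6.68 to 6.91 and 6.95 to 6.99, with PAX6, SOX1 and NEUROG2 below background. Endoderm markers (7 of 9) averaged 5.01 to 5.17 and 5.03 to 5.07 and fibroblast markers (7) 5.62 to 5.77 and 5.75 to 5.80, each given for depletion arrays and then for siNTC arrays. The mean trophectoderm and neuroectoderm levels were lower on every depletion array, as were EPCAM, CLDN7 and TJP1. In the mean of the depletions 3 trophectoderm and 4 neuroectoderm markers were called lower and none higher, where 24.2% of all genes were lower. Endoderm markers had 2 higher and 1 lower call, and fibroblast markers 0 higher and 2 lower. Of the 4 neuroectoderm markers, NEUROG2 was below background on all arrays. OTX2 was not lower in siTET1, with 11.20 and 11.25 against 11.09 and 11.16 in siNTC. HAND1 (-0.88) and MAP2 (-0.83) fell most, while CDX2 (-0.021), TFAP2C (-0.0097) and DCX (0.10) were not called. The part of these markers in the changes of EPCAM, CLDN7 and TJP1 was not tested.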

How the data were processed

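The authors deposited 1 table of log2 intensities for 8 arrays and 33297 transcript clusters; per the labels it was made in Partek, with background correction and normalization not given in the sources used here. Array medians lay between 6.22 and 6.27. Clusters with 1 symbol in the platform annotation (19460, or 58.4%) were used, with the brightest cluster standing for each of 769 genes that had several, which gave 18417 genes. The values were fitted with limma 3.58.1 (R 4.3.3; lmFit, then eBayes with trend) over 4 groups of 2 arrays, and two-sided p-values were adjusted by Benjamini-Hochberg over all genes; calls were made where the adjusted value was under 0.05. The number of arrays limits the precision. A gene not above the background level on every array of a group has only a bound there.

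The members and gene lists were chosen with earlier results of these data known. The genes named were the members, up to 2 called genes each way of each list, the 5 most like CLDN16, neighbours and the TET genes; those outside this rule are marked. Promoters and positions came from RefSeq (GRCh38.p14). The fit was tested on simulated data. Alternatives covered normalization, filter, variance model, cluster choice, a replicate block and leaving out each array.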

Additional observations from a re-analysis of the deposited data

Results flagged for a closer look

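Several genes differed between depletions by the limma test of the difference itself, with Benjamini-Hochberg adjustment over all genes. Of the members, TJP1 was lower in siTET3 than in siTET2 (-0.16). Of the listed genes, siTET3 minus siTET1 was 0.33 for CLDN11, -0.34 for AMOT, 0.42 for RAB13 and -0.14 for CDH2. The difference siTET3 minus siTET2 was 0.18 for PRKCI, 0.45 for RAB13, -0.19 for CDH2, 0.44 for GJA5, 0.22 for GJA1, -0.34 for GRHL1 and -0.26 for FN1. The difference siTET2 minus siTET1 was -0.14 for CTNNB1 and -0.14 for GJA1.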

How the results depend on the processing

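CLDN1, CLDN7, EPCAM and TJP1 kept their direction and call against siNTC under every alternative run, and the CLDN16 difference, from siNTC intensities below background, stayed between 4.02 and 4.23. Of 436 values of the other members against siNTC, 406 kept direction and call, 26 lost the call, 2 gained it and 2 turned direction. The losses were of CLDN3, CLDN6 and CLDN10; CLDN3 in siTET2 gained a call with quantile normalization (-0.36, adjusted p = 0.0459) and without siNTC replicate 2 (-0.54, adjusted p = 0.00894).

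Values that turned direction were not called before or after. They were, for siTET2 minus siTET1, CLDN16 (0.05) and EPCAM (0.029) without siTET1 replicate 1, where leaving out single arrays gave lows of -0.10 and -0.12; for siTET3 minus siTET1, CLDN16 (0.0037) without siTET1 replicate 1 and CLDN4 (0.019) without siTET1 replicate 2, with lows of -0.14 and -0.13; for siTET3 minus siTET2, CLDN1 (-0.025) and CLDN3 (0.045) without siTET3 replicate 1, and CLDN6 without siTET2 replicate 1 (-0.014) or siTET3 replicate 2 (-0.023), whose other ends were 0.12, -0.18 and 0.15; and against siNTC, CLDN4 in the mean without siTET1 replicate 2 (-0.00093) and CLDN10 in siTET3 without siNTC replicate 1 (0.027; -0.20 without siNTC replicate 2).

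Members called in siTET3 minus siTET1 numbered 1 in place of 0 with quantile normalization, and 0 to 1 over left-out arrays; in siTET3 minus siTET2 they numbered 2 in place of 1 with quantile normalization, 0 with no intensity trend, and 0 to 1 over left-out arrays. Calls among the other claudins fell to 1 with quantile normalization and with only genes above background, from 3 in the mean of the depletions. Over left-out arrays, the calls ranged from 1 to 3 among the other claudins (1 without siNTC replicate 2), 3 to 6 among desmosome genes (3 without siNTC replicate 1) and 0 to 3 among kidney tubule genes (0 without siNTC replicate 1, 1 without siTET1 replicate 2 or siTET2 replicate 1). Causes were not tested. The 4-array fit gives no value for the mean of the depletions.

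By the labels, arrays with the same number in different groups share only that number. Their deviations correlated at 0.25 for siTET1 with siTET3 and at between -0.05 and 0.05 for the other pairs of groups. With the replicate block, calls in the mean of the depletions numbered 7538 against 7490 without it, and 7 members were called in both.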
